A study of Mus musculus with 5 samples.

Results

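The genes described here encode the Polycomb repressive complexes, the methyltransferases that modify lysine 9 of histone H3 together with their cofactors, and the HP1 proteins that bind the methylated lysine. They were followed in Neuro2A, a neuroblastoma cell line of the mouse, and in lines derived from it, 5 in all, of which 2 carried vectors against the histone demethylase KDM7. The members were the probe sets whose platform annotation gives exactly 1 gene symbol from a list of 40 genes. That rule gave 100 of the 45037 probe sets that are not array controls, for 38 of the 40 genes. Suv39h1 and Rybp had no probe set with 1 symbol and were not analysed here.

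Each line was measured on 1 Affymetrix 3' array. The control arm held parental cells, cells with an empty vector and cells with a vector against EGFP, a sequence the mouse genome does not carry. Against these stood the stable lines for KDM7, with vector 1 or vector 2, called KDM7 knockdown line 1 and line 2 below. All lines share the Neuro2A background, and the labels do not say whether a line is 1 clone or a pool, or whether the lines were cultured separately. The p-values therefore measure only the spread between these 5 arrays. Values are MAS5 signals on a linear scale, differences are log2 of knockdown minus control, and errors are standard errors (SE) from limma.

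Polycomb repressive complex 2 (PRC2) methylates lysine 27 of histone H3 through EZH1 or EZH2, which work only when bound to EED and SUZ12. Polycomb repressive complex 1 (PRC1) adds ubiquitin to histone H2A through RING1 or RNF2 paired with a PCGF protein, and its CBX subunits bind the mark that PRC2 leaves. In heterochromatin a separate set of enzymes, among them the SUV39H, SETDB and EHMT proteins, methylates lysine 9, and HP1 proteins dock on that mark. KDM7 belongs to the JmjC demethylases and removes methyl groups from both lysines. In the nervous system BMI1 is known for the self-renewal of neural stem cells, and high EZH2 is a familiar feature of neuroblastoma.

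Kdm7a checked the labels. Its probe set 1456150_at read 487 in parental cells, 611 with the empty vector and 665 with the EGFP vector. The readings were 130 in KDM7 knockdown line 1 and 136 in line 2. From here on, control values are given in the order parental, empty vector, EGFP vector, and knockdown values in the order line 1, line 2. Both knockdown lines lay far below every control line (log2 difference -2.13, SE 0.20, adjusted p = 0.0627 in limma). The 2% trimmed mean signal was 500.0 on every array, so the lines had been scaled to one level, and the array median ran from 41.3 in the parental line to 49.2. Of 17 sympathoadrenal neuroblastoma marker genes with a probe set, 14 passed the brightness filter, and their summed signal ranged from 87010 to 94060 in control lines and from 85460 to 94860 in knockdown lines. Of their 27 tested probe sets 7 were below and 1 above the control range, against 10.2% and 12.6% of all probe sets, with a median log2 difference of -0.14. At an unadjusted p under 0.05 in limma 8 of the 27 were lower (of Gata3, Isl1, Dbh, Chga and Elavl4) and 1 higher (Chgb), against 4.99% of all in either direction, and none passed the adjusted test. The part of these markers in the members' counts was not tested. Th, Nefl and Nefm did not pass the filter. Of markers of other cells, 0 of 5 blood, 3 of 9 fibroblast, 2 of 5 glial and 2 of 4 epithelial genes passed it. Their summed signals in control and knockdown lines were 282 to 2918 and 163 to 375 for fibroblast genes, 227 to 508 and 380 to 544 for glial genes, and 127 to 378 and 208 to 549 for epithelial genes. Acta2, a smooth muscle actin, read 2733 in the parental line and at most 105 in the other 4 lines. The arrays measured RNA of whole cultures, so fewer cells of one kind and less RNA per cell cannot be told apart.

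No transcript of this machinery differed between knockdown and control lines past the test, and most measured differences were small. Of the 100 probe sets, 77 (77.0%) from 37 genes had a mean log2 signal at or above the array-wide median, a signal of 40.5, and were tested. None passed an adjusted p of 0.05 in limma, as none did among all 22519 probe sets tested (0.0%), and the smallest adjusted p of a member was 0.908. At an unadjusted p under 0.05 there was 1 of 77 (1.30%), against 4.99% of all probe sets. The median log2 difference was -0.0007, against 0.03 over all probe sets, and 37 members had a positive and 40 a negative difference. No member differed by 2-fold, a size reached by 1.81% of all probe sets, and 1 differed by at least 0.5 on the log2 scale, against 11.6% of all. A p that misses the threshold does not show that a level stayed the same, and the intervals give what the arrays allow. The 95% interval stayed within 1 log2 unit of 0 for 72 of 77 probe sets and within 0.5 for 30. The 5 that reached 1 log2 unit were Phc3 and the dim probe sets Ezh1 1418290_a_at, Rbbp4 1456260_at, Aebp2 1421021_at and Pcgf3 1440203_at.

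**Figure D1:**
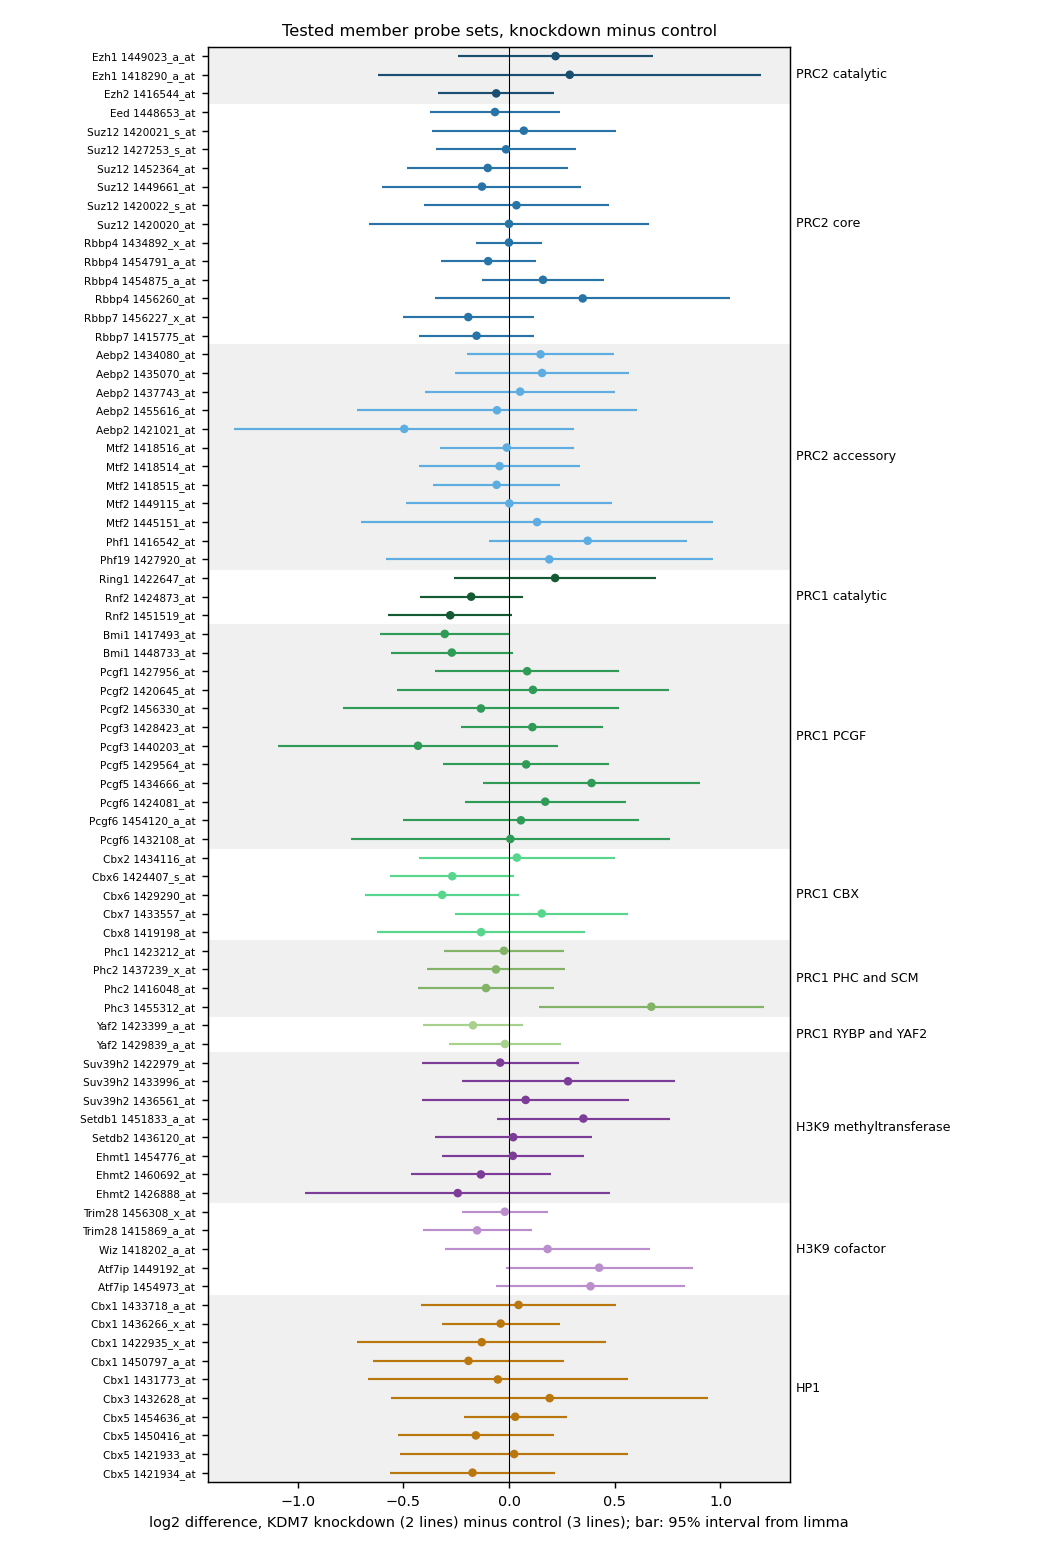
Log2 difference of knockdown minus control for the 77 tested member probe sets, grouped by role, with 95% intervals from limma (3 control and 2 knockdown lines). The values run from -0.50 (Aebp2 1421021_at) to 0.67 (Phc3), and the interval of Phc3 is the one that leaves out 0.

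Below that threshold, probe sets whose control and knockdown ranges did not overlap were more often lower than higher. Both knockdown lines were below the control range for 17 of 77 probe sets (22.1%), against 10.2% of all probe sets tested. Both were above it for 6 of 77 (7.79%), against 12.6% of all. Probe sets of 1 gene share its transcript, so the 17 stand for 13 genes and the 6 for 5 genes. With the brightest probe set of each gene, 5 of 37 genes (13.5%) were below and 4 of 37 (10.8%) above, against 10.2% and 12.7% of all genes. With the mean over the probe sets of a gene, 6 (16.2%) were below and 5 (13.5%) above, against 10.4% and 12.5%. Centring each array on its median moved the median of all probe sets by -0.11. The 77 members then split into 22 below and 4 above, and all probe sets into 17.7% below and 6.02% above. With 1 line left out, fewer lines have to separate. Below were 20 to 25 of the 77 members, beside 16.6% to 20.9% of all probe sets. Above were 7 to 17 of the 77, beside 18.5% to 24.5% of all probe sets. Below by the brightest probe set were Rbbp7, Rnf2, Bmi1, Cbx6 and Yaf2, and above were Phf1, Phc3, Setdb1 and Atf7ip. None of these 9 passed the adjusted test.

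**Figure D2:**
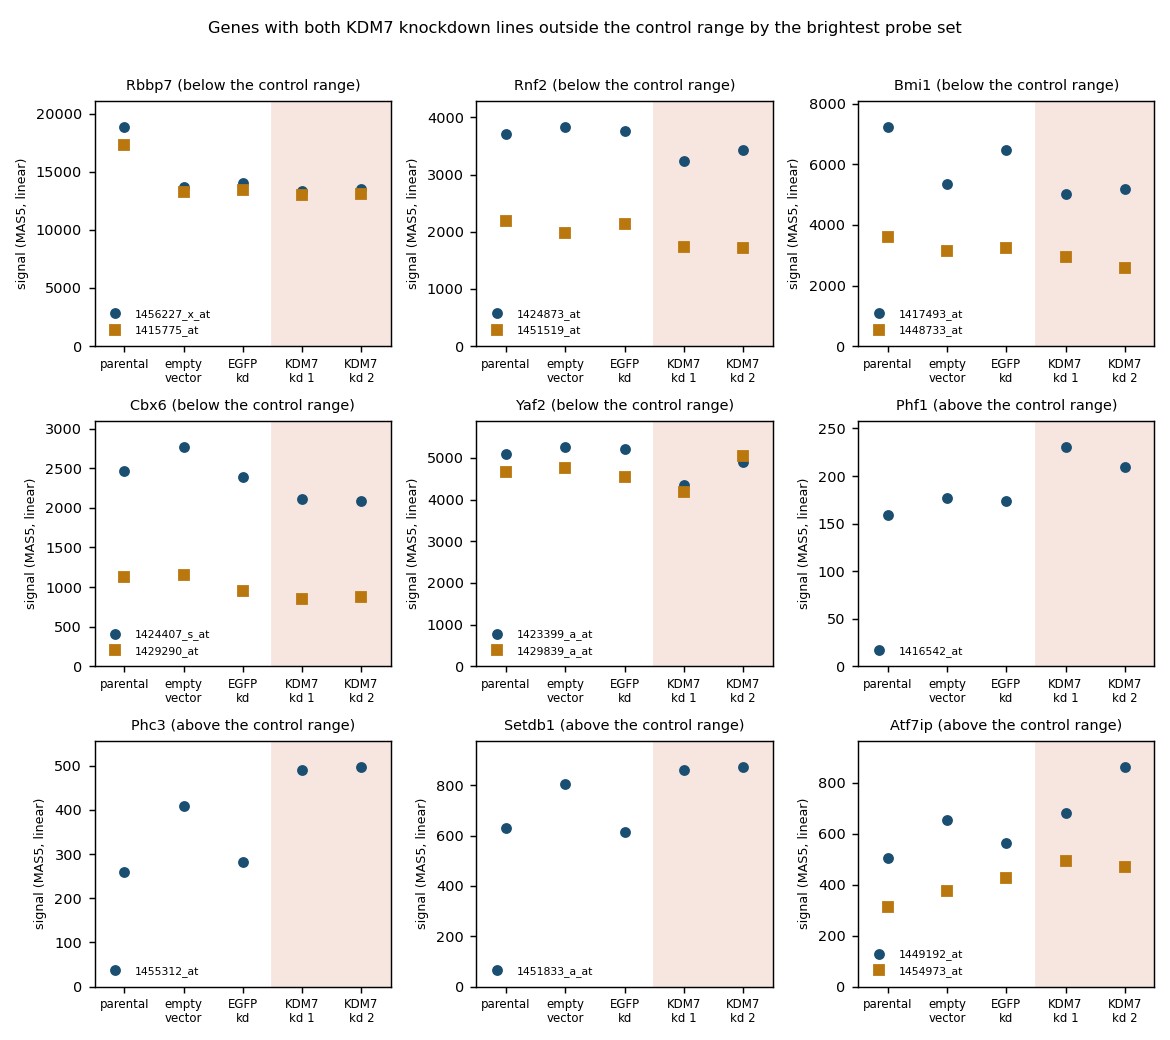
MAS5 signal (linear axis from 0) in each of the 5 lines for the 9 genes whose brightest probe set had both KDM7 knockdown lines (shaded) outside the control range; a second symbol marks another tested probe set. Rnf2, Bmi1 and Cbx6 are lower in both shaded lines by both probe sets, Rbbp7 is set apart by its parental value, and Phc3 is at 491 and 497 against 259 to 408 in the control lines.

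In PRC2, 28 tested probe sets of 10 genes had a median log2 difference of -0.0006. Of these, 1 lay above and 5 below the control range, against 12.6% and 10.2% of all probe sets. The 5 include both probe sets of Rbbp7. Ezh2, the main catalytic subunit of dividing cells, read 4944, 6098 and 5102 in the control lines and 5212 and 5061 in the knockdown lines. Both knockdown lines lay inside the control range (log2 difference -0.06, SE 0.12, 95% interval -0.33 to 0.21). The sign turned to 0.03 without the empty vector line. Ezh1, its paralog in resting cells, had 214, 252 and 209 in the control lines and 245 and 278 in the knockdown lines by probe set 1449023_a_at, with a log2 difference of 0.22 (SE 0.20). The groups overlapped there as well. Eed, the subunit that reads the finished mark, ranged from 2581 to 3234 in control lines and was at 2790 and 2708 in the knockdown lines.

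Suz12, the scaffold of PRC2, had the smallest p of any member between the knockdown lines. Its brightest probe set, 1420021_s_at, read 1933, 2386 and 2482 in the control lines, 2841 in line 1 and 1969 in line 2. Line 1 was thus the highest of the 5 lines and line 2 the lowest but 1, so the mean difference of 0.07 (SE 0.19) averages unlike lines. The mean sign turned without line 1, at -0.20. The other probe sets of Suz12 differed by -0.13 to 0.03.

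Rbbp4 and Rbbp7 encode histone-binding proteins that PRC2 shares with other chromatin complexes. Their probe sets can match more than 1 transcript where the name ends in _x_at or _s_at, so their split between the paralogs is uncertain. Rbbp7 1456227_x_at read 18875, 13672 and 14050 in the control lines and 13377 and 13495 in the knockdown lines. Both knockdown lines were the lowest, but by a small margin below the empty vector line, and the parental line stood high (log2 difference -0.19, SE 0.13, and -0.04 without the parental line). Its other probe set, 1415775_at, gave -0.15 (SE 0.12), and -0.03 without the parental line, whose high value thus carries most of both differences. Rbbp4 ranged from -0.10 for 1454791_a_at, which lay below the control range, to 0.35 for the dim 1456260_at, which overlapped it.

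The accessory subunits, which steer PRC2 to its sites, held the lowest and the highest difference of PRC2. Phf1, a Tudor-domain protein of the Polycomb-like family, read 159, 177 and 174 in the control lines and 230 and 209 in the knockdown lines. Both knockdown lines exceeded all controls, by 0.37 on the log2 scale (SE 0.20, 95% interval -0.10 to 0.84, adjusted p = 0.908 in limma). Its relative Mtf2 read 3166, 2560 and 3190 in the control lines and 2994 and 2878 in the knockdown lines by probe set 1418516_at. The knockdown lines lay between the controls (-0.01, SE 0.14), and quantile normalization turned the sign to 0.0042. By 1418515_at both knockdown lines lay below the controls by a small margin, at 1475, 1510 and 1532 against 1433 and 1457 (-0.06, SE 0.13). Phf19, the third of that family, was dim, at 55.9, 81.7 and 56.5 in the control lines and 77.9 and 67.8 in the knockdown lines, and overlapped (0.19, SE 0.34). Its difference was 0.37 without the empty vector line, and 0.10, 0.10 and 0.09 without the parental line, the EGFP knockdown line and line 1, and 0.29 without line 2. Aebp2, a zinc finger cofactor, overlapped the controls by 4 of 5 probe sets. The exception, 1421021_at, had 72.04, 54.5 and 60.9 against 42.1 and 46.0 (-0.50, SE 0.35).

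In PRC1, 26 tested probe sets of 16 genes had a median log2 difference of -0.02. Of these, 9 lay below and 2 above the control range, against 10.2% and 12.6% of all probe sets. The 9 include both tested probe sets each of Rnf2, Bmi1 and Cbx6. Rnf2 encodes RING1B, the E3 ligase that catalyses most H2A ubiquitination. Its probe set 1424873_at read 3713, 3835 and 3765 in the control lines and 3230 and 3432 in the knockdown lines. All 3 controls lay close together and both knockdown lines below them (-0.18, SE 0.11, 95% interval -0.42 to 0.06). By 1451519_at the values were 2183, 1970 and 2140 against 1731 and 1723 (-0.28, SE 0.13, unadjusted p = 0.0591 and adjusted p = 0.908 in limma). The paralog Ring1 lay inside the control range, at 269, 250 and 344 against 325 and 338 (0.22, SE 0.21).

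Bmi1, also called PCGF4, pairs with the RING proteins and is needed for neural stem cell self-renewal. Its probe set 1417493_at read 7239, 5365 and 6471 in the control lines and 5037 and 5183 in the knockdown lines. Both knockdown lines were the lowest of the 5, though the empty vector line lay near them (-0.30, SE 0.13, 95% interval -0.61 to 0.0039, adjusted p = 0.908 in limma). Its other probe set, 1448733_at, had 3615, 3141 and 3251 against 2937 and 2592, again with no overlap (-0.27, SE 0.12). Without the parental line the difference of 1417493_at was -0.21. The other PCGF genes define variant forms of PRC1. Pcgf2 was dim and uneven, at 101, 99.5 and 122 in the control lines and 140 and 95.7 in the knockdown lines by 1420645_at, so its 2 knockdown lines were the highest and the lowest of the 5 (0.11, SE 0.28, and -0.16 without line 1). Pcgf1, Pcgf3, Pcgf5 and Pcgf6 overlapped the controls by their brightest probe sets, with differences of 0.09, 0.11, 0.08 and 0.17. Dimmer probe sets differed from these, with Pcgf2 1456330_at at -0.13, Pcgf3 1440203_at below the control range at -0.43 and Pcgf5 1434666_at above it at 0.39.

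Of the CBX subunits, which read the H3K27 methyl mark, Cbx6 lay below the control range by both of its probe sets. Its 1424407_s_at read 2459, 2767 and 2385 in the control lines and 2111 and 2090 in the knockdown lines (-0.27, SE 0.13). Its 1429290_at read 1124, 1152 and 947 against 844 and 875 (-0.32, SE 0.16). Neither pair of groups overlapped, and neither passed the test (adjusted p = 0.908 for both in limma). Cbx2, a subunit able to compact chromatin, read 765, 1113 and 1110 in the control lines and 1041 and 974 in the knockdown lines, with the parental line lowest (0.04, SE 0.20, and -0.14 without the parental line). Cbx7 and Cbx8 overlapped the controls, with differences of 0.15 and -0.13.

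The polyhomeotic proteins polymerise through their SAM domain and link PRC1 particles. Phc3 had the largest difference among the tested members. It read 259, 408 and 281 in the control lines and 491 and 497 in the knockdown lines. The knockdown lines lay close to each other and above all controls, among which the empty vector line stood highest. The log2 difference was 0.67 (SE 0.23, 95% interval 0.14 to 1.21, unadjusted p = 0.0195 and adjusted p = 0.908 in limma). Its paralogs overlapped the controls by their brightest probe sets. Phc2 read 2155, 2080 and 1774 against 1841 and 1985 by 1437239_x_at (-0.06, SE 0.14). By 1416048_at it lay below the control range, at 1205, 1148 and 1183 against 1055 and 1131 (-0.11, SE 0.14). Phc1 was nearly level over all 5 lines, from 1820 to 1914 (-0.02, SE 0.12). Scmh1, a further SAM-domain partner, had 3 probe sets, none bright enough to be tested. Yaf2, which occupies variant PRC1 in place of the CBX subunits, read 5107, 5262 and 5225 in the control lines and 4353 and 4896 in the knockdown lines by 1423399_a_at. Both knockdown lines were lower, line 1 more so (-0.17, SE 0.10, and -0.09 without line 1). At the other probe set, 1429839_a_at, line 2 was instead the highest of the 5 lines, at 5058.

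The PRC1 genes outside the control range by their brightest probe set, and with a RefSeq promoter entry, were Rnf2, Bmi1, Cbx6 and Phc3, and the 250 bases upstream of their starts are shown because members of one complex lay on both sides of the controls. They were chosen after their values were seen. The sequences are from RefSeq on GRCm38.p6, at chr1:151500992-151501241 (minus strand) for Rnf2, chr2:18676768-18677017 (plus) for Bmi1, chr15:79834334-79834583 (minus) for Cbx6 and chr3:30969416-30969665 (minus) for Phc3. Capitals mark CACGTG, the canonical E-box.
Rnf2: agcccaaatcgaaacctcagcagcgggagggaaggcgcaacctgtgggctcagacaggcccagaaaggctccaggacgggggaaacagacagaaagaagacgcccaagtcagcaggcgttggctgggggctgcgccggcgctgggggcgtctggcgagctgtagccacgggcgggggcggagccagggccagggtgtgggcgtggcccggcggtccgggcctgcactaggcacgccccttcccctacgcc
Bmi1: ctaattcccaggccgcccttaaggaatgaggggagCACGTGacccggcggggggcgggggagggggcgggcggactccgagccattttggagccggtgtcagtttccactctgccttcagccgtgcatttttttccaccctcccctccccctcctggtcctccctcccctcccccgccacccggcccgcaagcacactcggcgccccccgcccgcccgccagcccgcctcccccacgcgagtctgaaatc
Cbx6: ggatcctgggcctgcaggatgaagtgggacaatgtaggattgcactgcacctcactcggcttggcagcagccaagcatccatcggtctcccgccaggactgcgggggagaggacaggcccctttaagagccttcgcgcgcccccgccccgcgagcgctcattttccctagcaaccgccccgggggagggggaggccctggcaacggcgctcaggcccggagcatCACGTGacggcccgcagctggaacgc
Phc3: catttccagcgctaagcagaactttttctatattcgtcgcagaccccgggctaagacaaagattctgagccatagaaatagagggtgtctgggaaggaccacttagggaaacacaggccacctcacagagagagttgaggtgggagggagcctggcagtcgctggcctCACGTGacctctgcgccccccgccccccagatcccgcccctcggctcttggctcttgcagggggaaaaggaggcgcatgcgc

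The first base of CACGTG lay 215 bases upstream of the start in Bmi1, 26 in Cbx6 and 82 in Phc3, so the letters occur in promoters of genes on both sides of the control range. The motif is its own reverse complement and was counted once per position. Over all members, 36 genes had 51 promoter entries, and 10 of the 51 (19.6%, from 9 genes) held CACGTG, against 6.02% of the 32851 promoters in the table. The members' promoters were also richer in CpG, with a median of 20 CpG against 6 and a GC content of 64.8% against 52.4%, and CACGTG itself holds a CpG. The E2F-type sequence TTTCGCGC (with its reverse complement) was in 0 of 51 against 0.256% of all, and TTTGGCGC in 1 of 51, that of Cbx3, against 0.417%. These are matches of letters, and no binding was measured.

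Among the H3K9 methyltransferases and their cofactors, 13 tested probe sets of 8 genes had a median log2 difference of 0.02. Above the control range were 3 and below it 1, against 12.6% and 10.2% of all probe sets. The 3 above are 1 probe set of Setdb1 and both tested probe sets of Atf7ip, genes whose proteins work together. SETDB1 silences retroelements, and ATF7IP is the partner that stabilises it in the nucleus. Setdb1 read 629, 805 and 616 in the control lines and 859 and 871 in the knockdown lines. The knockdown lines were the highest, with the empty vector line nearest to them (0.35, SE 0.18, 95% interval -0.06 to 0.76). Atf7ip 1449192_at read 502, 654 and 562 in the control lines and 681 and 860 in the knockdown lines (0.43, SE 0.19, and 0.26 without line 2). Its 1454973_at read 314, 376 and 425 against 493 and 470 (0.39, SE 0.19). Neither gene passed the test (adjusted p = 0.908 for all 3 probe sets in limma).

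Trim28, also called KAP1, recruits SETDB1 to zinc finger proteins and was among the brightest members. It read 9591, 10105 and 11089 in the control lines and 10058 and 10140 in the knockdown lines by 1456308_x_at, inside the control range (-0.02, SE 0.09). By 1415869_a_at both knockdown lines lay below all controls (-0.15, SE 0.11). Ehmt1, the GLP partner in the dimer that dimethylates H3K9 in euchromatin, read 2484, 2440 and 3056 against 2508 and 2862 (0.02, SE 0.15). Ehmt2, its G9a partner, was at -0.13 (SE 0.14) by its brightest probe set, with line 2 inside the control range. Suv39h2, Setdb2 and Wiz, a zinc finger partner of the EHMT dimer, did not separate from the controls, with differences of -0.04, 0.02 and 0.18.

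The HP1 genes, Cbx1, Cbx3 and Cbx5, had 10 tested probe sets with a median log2 difference of -0.05. Above the control range were 0 and below it 2, against 12.6% and 10.2% of all probe sets. Cbx5, encoding HP1 alpha, read 3763, 3758 and 3515 in the control lines and 3782 and 3720 in the knockdown lines by 1454636_at, a highest to lowest ratio of 1.08, while the ratio was 1.67 for its dimmer 1421933_at. The groups overlapped, with line 1 the highest of the 5 (0.03, SE 0.11). Cbx1, encoding HP1 beta, read 3425, 3522 and 2274 against 2870 and 3372 by 1433718_a_at, with the EGFP knockdown line the lowest (0.04, SE 0.20, and -0.16 without that line). Cbx3, encoding HP1 gamma, was tested by 1 dim probe set, at 67.4, 79.4 and 55.1 against 67.96 and 85.1 (0.19, SE 0.33). Its difference was 0.03 without line 2, 0.06 without the EGFP knockdown line, 0.32 without the empty vector line and 0.35 without line 1. Where probe sets of one HP1 gene disagree, as for Cbx1 and Cbx5, no single direction was taken.

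**Figure D3:**
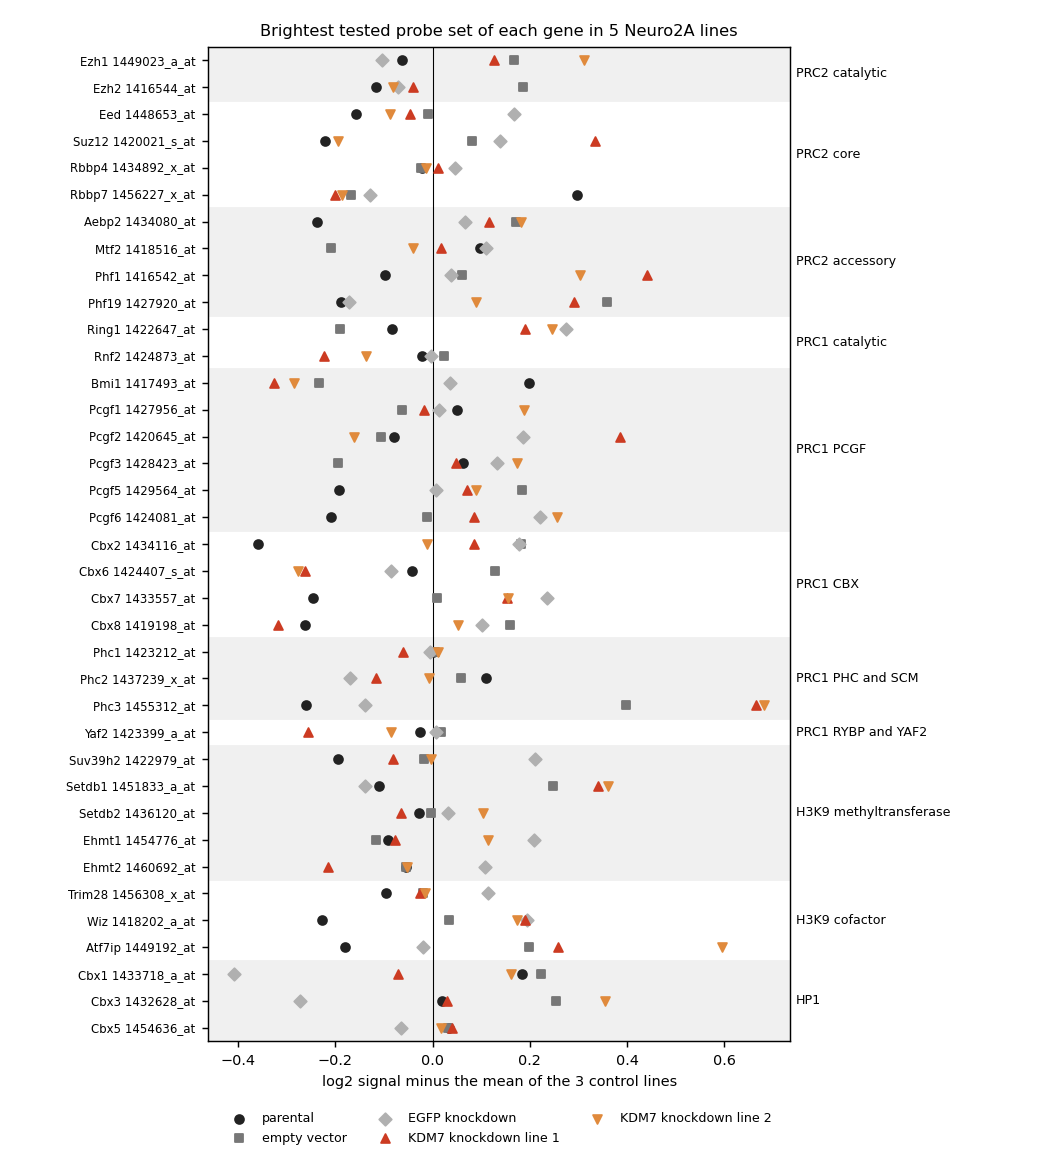
Log2 signal in each of the 5 lines minus the mean of the 3 control lines, for the brightest tested probe set of each of the 37 genes, ordered by role (grey and black symbols, control lines; coloured triangles, KDM7 knockdown lines). The triangles lie outside the control symbols on the same side for 9 genes, and those of Phc3 are farthest from 0.

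The members varied little over the 5 lines. The ratio of the highest to the lowest line had a median of 1.34 over the members, from 1.05 for Rbbp4 1434892_x_at to 2.22 for Ezh1 1418290_a_at, which alone reached 2. Over all probe sets the median was 1.499, and 21.2% reached 2. The members were also brighter, with a median signal of 774 against 396, and spread falls with brightness on these arrays. When all probe sets were split into 4 equal bins of brightness, the brightest bin held 33 of the 77, with a median ratio of 1.25 for members and 1.28 for all. The ratios were 1.42 and 1.41 in the next bin, 1.39 and 1.57 in the one after it, and 1.46 (11 members) and 2.05 in the dimmest. The parental line was the lowest of the 5 for 26 of 77 members (33.8%), against 31.5% of all probe sets, and KDM7 knockdown line 1 for 18 (23.4%), against 14.6%. The empty vector line was lowest for 11 (14.3%), against 19.2%, the EGFP knockdown line for 11, against 18.7%, and line 2 for 11, against 15.9%. As the highest line, the EGFP knockdown line came first, with 22 members (28.6%) against 23.3% of all. The parental line was highest for 16 (20.8%, against 23.0%), the empty vector line for 15 (19.5%, against 18.3%), line 1 for 10 (13.0%, against 16.7%) and line 2 for 14 (18.2%, against 18.7%). Quantile normalization gave 23 lowest and 16 highest for the parental line, and cyclic loess 25 and 19. Median centring, which shifts all values of an array alike, gave 10 and 36, against 16.1% and 40.6% of all probe sets.

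**Figure D4:**
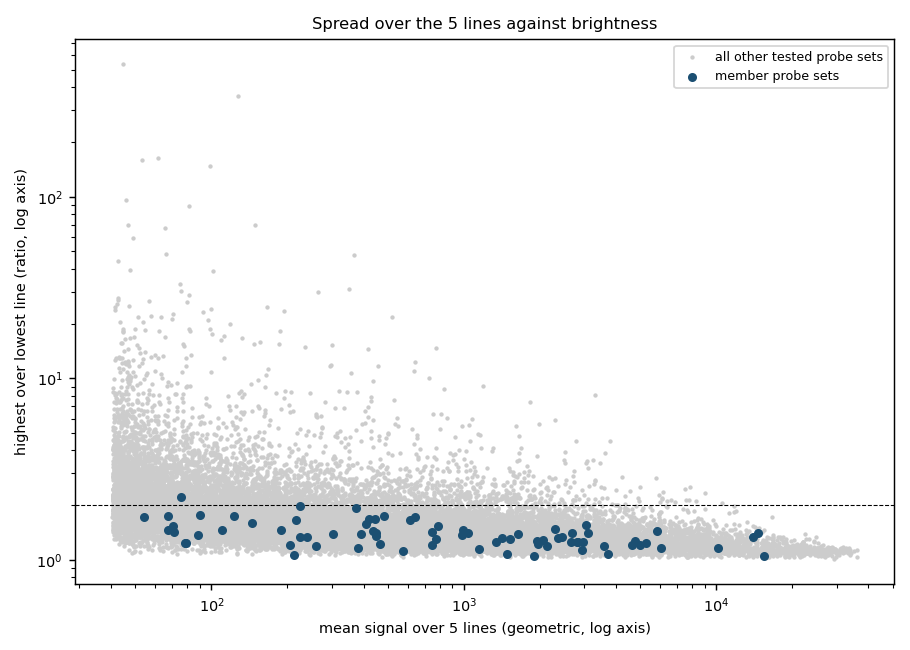
Ratio of the highest to the lowest of the 5 lines (log axis) against mean signal (log axis) for the 77 member probe sets, in blue, and all other tested probe sets, in grey. The member medians are 1.46 in the dimmest of 4 brightness bins and 1.25 in the brightest, and Ezh1 1418290_a_at is the 1 member above the dashed line at 2-fold.

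The closest pair of lines was the pair of KDM7 knockdown lines. Their median absolute log2 difference was 0.10 over the members, against 0.17 over all probe sets. The parental and EGFP knockdown lines were the farthest apart, at 0.24 over the members and 0.29 over all, and the other 8 pairs lay from 0.16 to 0.23 over the members. The order of these distances followed that of all probe sets at both ends.

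**Figure D5:**
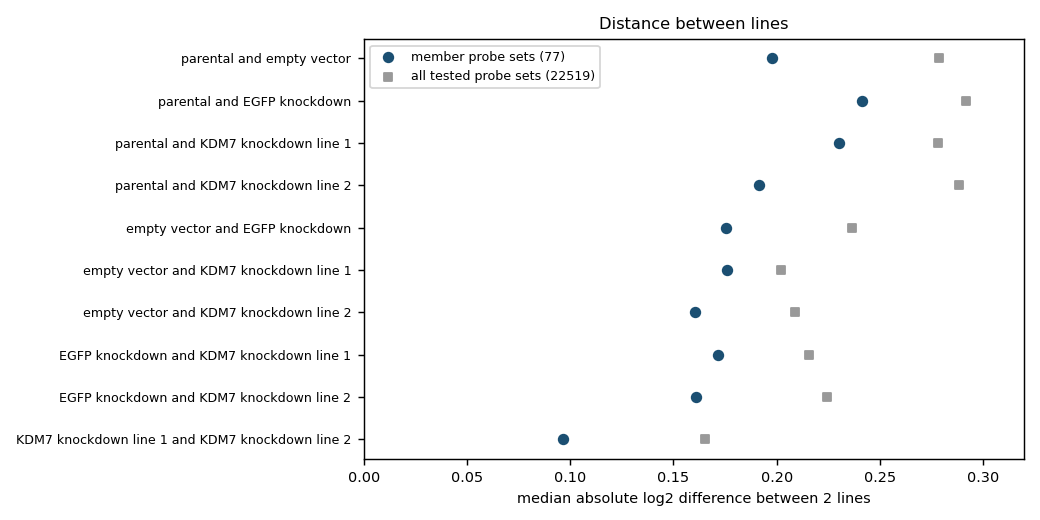
Median absolute log2 difference between each pair of the 5 lines, over the 77 member probe sets (circles) and all 22519 tested probe sets (squares). The pair of KDM7 knockdown lines is lowest by both, at 0.10 and 0.17, and the parental and EGFP knockdown pair highest, at 0.24 and 0.29.

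Line 2 against line 1 compares the lines made with the 2 vectors, with each line assumed to vary like the controls. In limma 0 of 77 members passed an adjusted p of 0.05, against 0.00444% of all probe sets, and 0 had an unadjusted p under 0.05, against 1.5%. None differed by 2-fold between the lines, against 3.08% of all. The smallest unadjusted p was 0.0905, for Suz12 1420021_s_at, which was lower in line 2 by a log2 difference of -0.53 (SE 0.27, adjusted p = 1 in limma). In all, 5 of the 6 tested Suz12 probe sets were lower in line 2, by log2 differences of -0.04 to -0.53. These probe sets share 1 gene, so they are not separate support. The median of line 2 minus line 1 over all probe sets was 0.0084. Cbx1 1422935_x_at had the largest gap between the lines, at 506 in line 1 and 316 in line 2. Suv39h2 1433996_at was also lower in line 2, at 840 and 563. Mtf2 1445151_at, at 57.9 and 88.0, and Pcgf6 1432108_at, at 101 and 152, were higher in line 2. None of these gaps was past the test, and each of these genes had another tested probe set that ran the other way.

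Genes that work with the members were counted in the same way, beside 12.6% above, 10.2% below and 4.99% at an unadjusted p under 0.05 among all probe sets. Of 73 tested probe sets of Polycomb partners outside the members, 7 were above and 12 below the control range, and of 59 probe sets of H3K9 and heterochromatin partners 5 and 9. Of 22 probe sets of H3K9 and H3K27 demethylases, Kdm7a included, 2 were above and 6 below. None of the 3 lists had a probe set past an adjusted p of 0.05 in limma. At an unadjusted p under 0.05 in limma, the Polycomb partners had 1 higher and 5 lower probe sets. The H3K9 list had 1 higher, and the demethylases 3 lower. All 3 were of Kdm7a, the targeted gene, as the smallest unadjusted p of any other gene in that list was 0.0919 (Kdm3b, limma). The 2 Polycomb partners with the smallest p were Auts2 and Lcor. Auts2, a subunit of a variant PRC1 that activates genes in neurons, read 1804, 1750 and 1803 in the control lines and 2428 and 2224 in the knockdown lines (0.38, SE 0.13, unadjusted p = 0.0160 in limma). Lcor, a corepressor whose locus also encodes a PRC2 cofactor, read 675, 726 and 734 against 535 and 489 (-0.47, SE 0.16, unadjusted p = 0.0175 in limma). In the H3K9 list these were Zfp644, a partner of the EHMT dimer (0.59, SE 0.24), and Atrx, a heterochromatin remodeller (-0.60, SE 0.30, with the parental line highest at 992). Among the demethylases besides Kdm7a, Kdm3b, an H3K9 demethylase, had 714, 718 and 712 against 850 and 893 (0.29, SE 0.15).

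The 23 member probe sets under the brightness filter had mean signals of 3.13 to 38.2, and no line exceeded 68.5 on any of them. Their log2 differences ran from -1.18 to 2.30 and were not tested, since log values of MAS5 signals this dim vary widely. They include all 3 probe sets of Scmh1, and for the other genes brighter probe sets are described above.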

How the data were processed

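The deposited table holds linear intensity values that the authors computed with MAS5, version not given in the sources used here, as the submitters' processing notes record. Every array had a 2% trimmed mean of 500.0. In R 4.3.3, 64 control probe sets were left out of 45101, and log2 was taken without an offset. Probe sets with a mean log2 signal at or above the median of all (40.5 in signal) were kept, 22519 in all. limma 3.58.1 (lmFit, eBayes with trend) compared 2 knockdown with 3 control lines, with 3 residual and 5.06 prior degrees of freedom. Adjustment was by Benjamini-Hochberg over all kept probe sets. The fit was also run on simulated data with independent normal noise, which cannot show its behaviour where probe sets vary together between lines. A model with 3 groups compared the knockdown lines. The robust option was left out because an earlier report on these data described too many calls with it in simulated data without differences.

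Symbols came from the platform annotation, in which 34945 probe sets had 1 symbol, 932 several and 9160 none listed. Members and lists were chosen with earlier results of these data known. Named members are those outside the control range by their brightest probe set, the 10 with the largest ratio over lines, the brightest of each role, and the 5 with the smallest p. Names in other lists are the 2 with the smallest p, and others were named after their values were seen. Alternatives covered normalization, filter, offset, variance model, array weights, probe sets per gene and each array left out. Detection calls were not used here, and the number of arrays limits precision.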

Additional observations from a re-analysis of the deposited data

How the results depend on the processing

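No member passed an adjusted p of 0.05 in limma under any of the 16 alternatives, whose smallest adjusted p was 0.478, and members at an unadjusted p under 0.05 numbered 0 to 5. No paired analysis was possible, because each line carried a different vector or none and the labels match no control line with a knockdown line. With 1 array per line, 72 of 77 intervals stayed within 1 log2 unit of 0 and 30 within 0.5, so smaller differences are not resolved for many members.

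Over all probe sets, calls for knockdown against control went from 0 to 2 with a filter at the 70th percentile, 2 with trend and robust and 5 with array weights, and ranged from 0 to 4 with 1 array left out, the 4 being without the parental line. The adjusted p of Kdm7a in limma ran from 0.00969 (array weights) to 0.722 (no trend). For line 2 against line 1 they went from 1 to 0 under median centring, no filter, an offset of 32, no trend, the brightest probe set per gene and the mean per gene, to 3 with array weights, and ranged from 0 to 2 with 1 array left out.

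The median log2 difference of the members was -0.11 under median centring, where that of all probe sets was -0.08, and ranged from -0.03 to 0.02 with 1 array left out. Counted per gene, 9 of 37 genes lay outside the control range by the brightest probe set, 5 of them below. By the mean over probe sets 11 did, 6 of them below. Of all genes 10.2% lay below and 12.7% above by the brightest probe set, and 10.4% and 12.5% by the mean. With 1 array left out, 28 to 39 of 77 member probe sets lay outside, since fewer lines had to separate. The count was 39 without the EGFP knockdown line and 38 without either KDM7 knockdown line. Above were 7 to 17 members and below 20 to 25. Of all probe sets, 18.5% to 24.5% were then above and 16.6% to 20.9% below. For the order of lines, every other normalization was added after seeing the data. Median centring put the parental line lowest for 10 and highest for 36 members. Quantile normalization (23 and 16) and cyclic loess (25 and 19) stayed near 26 and 16.

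Of 26 named probe sets 17 kept their sign in every alternative run. Median centring moved the median of all probe sets by -0.11, so small positive values turn by construction, which says nothing of single genes, as for Suz12 (-0.0401), Cbx2 (-0.0731), Ehmt1 (-0.0919), Cbx1 (-0.065) and Cbx5 (-0.0808). Signs also turned under quantile normalization for Mtf2 (0.0042), with array weights for Mtf2 (0.0241) and Cbx2 (-0.0281), and with the mean per gene for Suz12 (-0.0235), Mtf2 (0.0036), Pcgf2 (-0.0103), Cbx1 (-0.0741) and Cbx5 (-0.0694). With 1 array left out, the log2 difference ranged from -0.1191 to 0.0323 for Ezh2, from -0.1951 to 0.3342 for Suz12, from -0.1149 to 0.0439 for Mtf2, from -0.1605 to 0.3859 for Pcgf2, from -0.143 to 0.1273 for Cbx2, from -0.0775 to 0.1217 for Ehmt1, from -0.0679 to 0.0368 for Trim28, from -0.159 to 0.1609 for Cbx1 and from -0.0037 to 0.0456 for Cbx5. The cause was not tested.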
